A study of Homo sapiens with 12 samples.

Results

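Metallothioneins and MTF1 were followed in Caco-2 cells after knockdown of the zinc finger protein ZNF658. Metallothioneins are small cytosolic proteins whose cysteines bind zinc and copper, and their genes lie side by side in a cluster on chromosome 16. MTF1 is the transcription factor that enters the nucleus when zinc is plentiful and activates the metallothionein genes through the metal response element (MRE) of their promoters. The intestinal epithelium makes metallothioneins as a store and buffer for the zinc it absorbs. ZNF658 was studied as a protein that binds another motif, the zinc transcriptional regulatory element (ZTRE), and represses transcription in response to zinc.

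The genes were chosen by symbol: the 8 metallothioneins MT1A, MT1E, MT1F, MT1G, MT1H, MT1M, MT1X and MT2A, and MTF1, 9 in all. The Illumina HT12 array measured 47231 probes, and gene symbols were at hand for 15540 of them, which named 11724 genes. Among these named probes 6 carried one of the chosen symbols, 1 each for MT2A, MT1X, MT1F, MT1E, MT1G and MTF1. MT1A, MT1H and MT1M were not among the names at hand, so probes for them were not analysed here. The reading of 4 of the 6 probes passed the filter for testing (all 3 arrays of 1 group or more with a detection p under 0.01), as did 14804 probes of the whole array. These 4 were MT2A, MT1X, MT1F and MT1E. Metallothionein transcripts resemble each other closely, and reads of 1 gene's RNA by another gene's probe could not be checked here.

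The 12 arrays form 4 groups of 3, all of Caco-2, a human colonic adenocarcinoma line that can take on features of enterocytes, transfected with Lipofectamine RNAiMAX. ZNF658 siRNA 1 (Ambion) was set against control siRNA 1 (Ambion), and ZNF658 siRNA 2 (Dharmacon) against control siRNA 2 (Dharmacon), as the sample labels give them. A supplementary table of the study names the Dharmacon control alone for the arrays, so the supplier of control siRNA 1 rests on the labels. No zinc treatment is named in the labels of these arrays. Whether the replicates were separate cultures is not stated, so the p values measure the spread between these arrays, which may be technical.

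All 9 intestinal epithelial marker genes with a named probe, among them KRT8, CDH1, EPCAM and CDX2, were detected on every array. The list held 12 symbols, with EPCAM under its old name too. Of 6 fibroblast markers 3 had a named probe, and 2 of these, COL1A1 and COL1A2, were detected on every array. Of 4 leukocyte markers CD14 alone had a named probe, and it was detected on every array. ZNF658 was not among the names at hand, so its knockdown was not analysed here. The study reports lower ZNF658 mRNA by RT-qPCR for each of its siRNAs, without saying that the RNA of these arrays was used. Between 14454 and 16167 probes were detected per array, and the number of arrays limits the precision. For 8 of 12 arrays the closest array by correlation lay in the same group. Replicate 3 of ZNF658 siRNA 2 was closest to replicate 1 of control siRNA 2 (r = 0.989), and replicate 3 of control siRNA 2 was closest to replicate 2 of ZNF658 siRNA 2 (r = 0.973). Leaving out both of these arrays numbered 3 raised the probes called to 268 with siRNA 2, where 0 were called with all arrays. Leaving out arrays that lie closest to the opposite group can by itself raise the calls, so calls made this way are given as a description only. Replicate 3 of ZNF658 siRNA 1 and replicate 1 of control siRNA 1 were closest to each other (r = 0.990). Without this pair 0 probes were called with siRNA 1, where 2 were called with all arrays. The differences of the tested metallothioneins from their controls are given with and without these pairs of arrays.

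The MRE is bound through a core of 7 bases, searched here as TGCACNC and TGCGCNC on both strands. RefSeq promoter sequence (GRCh38.p14) was at hand for 4 of the 9 genes, MT2A, MT1X, MT1H and MTF1. The 250 bases before the start are shown for the 2 of these genes whose probes gave the lowest p values below, with the cores in capitals. Capitals such as GTGTGCA are cores read on the opposite strand. The MT2A window is chr16:56608334-56608583 and the MT1X window chr16:56682220-56682469, both on the plus strand.
MT2A: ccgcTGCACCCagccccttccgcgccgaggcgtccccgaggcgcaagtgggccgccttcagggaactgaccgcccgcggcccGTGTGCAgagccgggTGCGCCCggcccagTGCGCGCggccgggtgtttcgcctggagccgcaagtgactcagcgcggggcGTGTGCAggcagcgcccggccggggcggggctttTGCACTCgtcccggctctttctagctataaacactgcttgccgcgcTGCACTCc
MT1X: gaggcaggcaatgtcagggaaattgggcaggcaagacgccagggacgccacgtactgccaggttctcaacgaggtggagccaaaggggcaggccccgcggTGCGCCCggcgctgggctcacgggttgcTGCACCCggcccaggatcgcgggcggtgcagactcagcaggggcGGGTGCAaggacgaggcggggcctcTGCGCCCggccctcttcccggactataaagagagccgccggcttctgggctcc

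The MT2A window held 7 cores, 5 on the gene's strand and 2 on the other. At least 7 cores were found in 0.0313% of the 35116 promoters searched, and at least 1 core in 24.8%. The MT1X window held 4 cores, a number reached by 0.37% of promoters. The MT1H window, which could not be set against a probe, held 8. The MTF1 window (chr1:37859593-37859842, minus strand) held none. No cores overlapped in these windows. The ZTRE, taken as a palindrome with up to 50 bases between its arms, was searched with a second arm of 7 letters, the reverse complement of the first, and was matched in the MTF1 window and in none of the 3 metallothionein windows, against 8.44% of all promoters. With the second arm of 6 letters that the study prints, searched on both strands and added after the first search was seen, the MTF1 and MT1H windows matched and those of MT2A and MT1X did not, against 19.2% of all promoters. A match of letters does not show that a factor was bound.

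**Figure D1:**
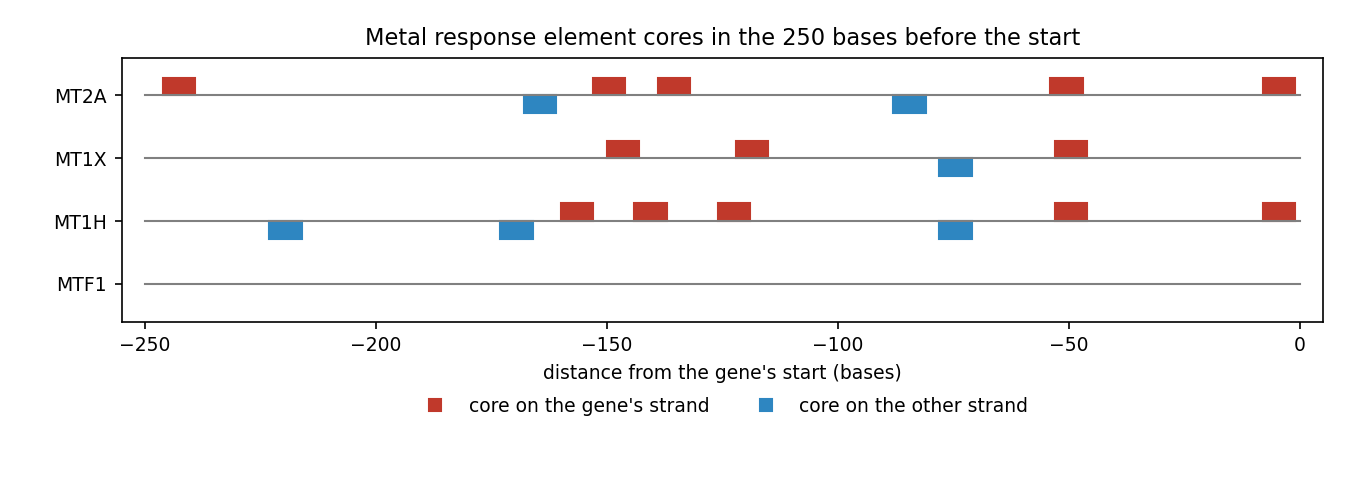
Each grey line is the 250 bases before the start of 1 gene, and each block is an MRE core, above the line in red on the gene's strand and below it in blue on the other. MT2A has 7 cores, MT1X has 4, MT1H has 8 and MTF1 has none.

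The first comparison asked whether metallothionein transcripts changed with either ZNF658 siRNA. None of the 4 tested metallothioneins was called with ZNF658 siRNA 1 or with ZNF658 siRNA 2. All 4 had differences slightly above 0 with siRNA 1 and below 0 with siRNA 2, the most marked of them MT1X with siRNA 2, whose arrays did not overlap with those of its control. Intensities are given on a log2 scale after background correction and quantile normalization with an offset of 16, and a call needed a Benjamini-Hochberg adjusted p under 0.05 from limma and a change of at least 1.2-fold. Over all probes, 0.0135% were called with siRNA 1, and 0% with siRNA 2. Without the siRNA 2 arrays numbered 3, 268 probes were called with siRNA 2 (177 higher and 91 lower), none of them a metallothionein of the 4. Without adjustment, 0 of the 4 had a limma p under 0.05 with siRNA 1, where 7.21% of all tested probes did, and 1 of the 4 with siRNA 2, where 5.65% did. The arrays of the groups did not overlap for 0 of the 4 with siRNA 1, against 16.7% of all tested probes, and for 2 of the 4 with siRNA 2, against 9.47%.

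**Figure D2:**
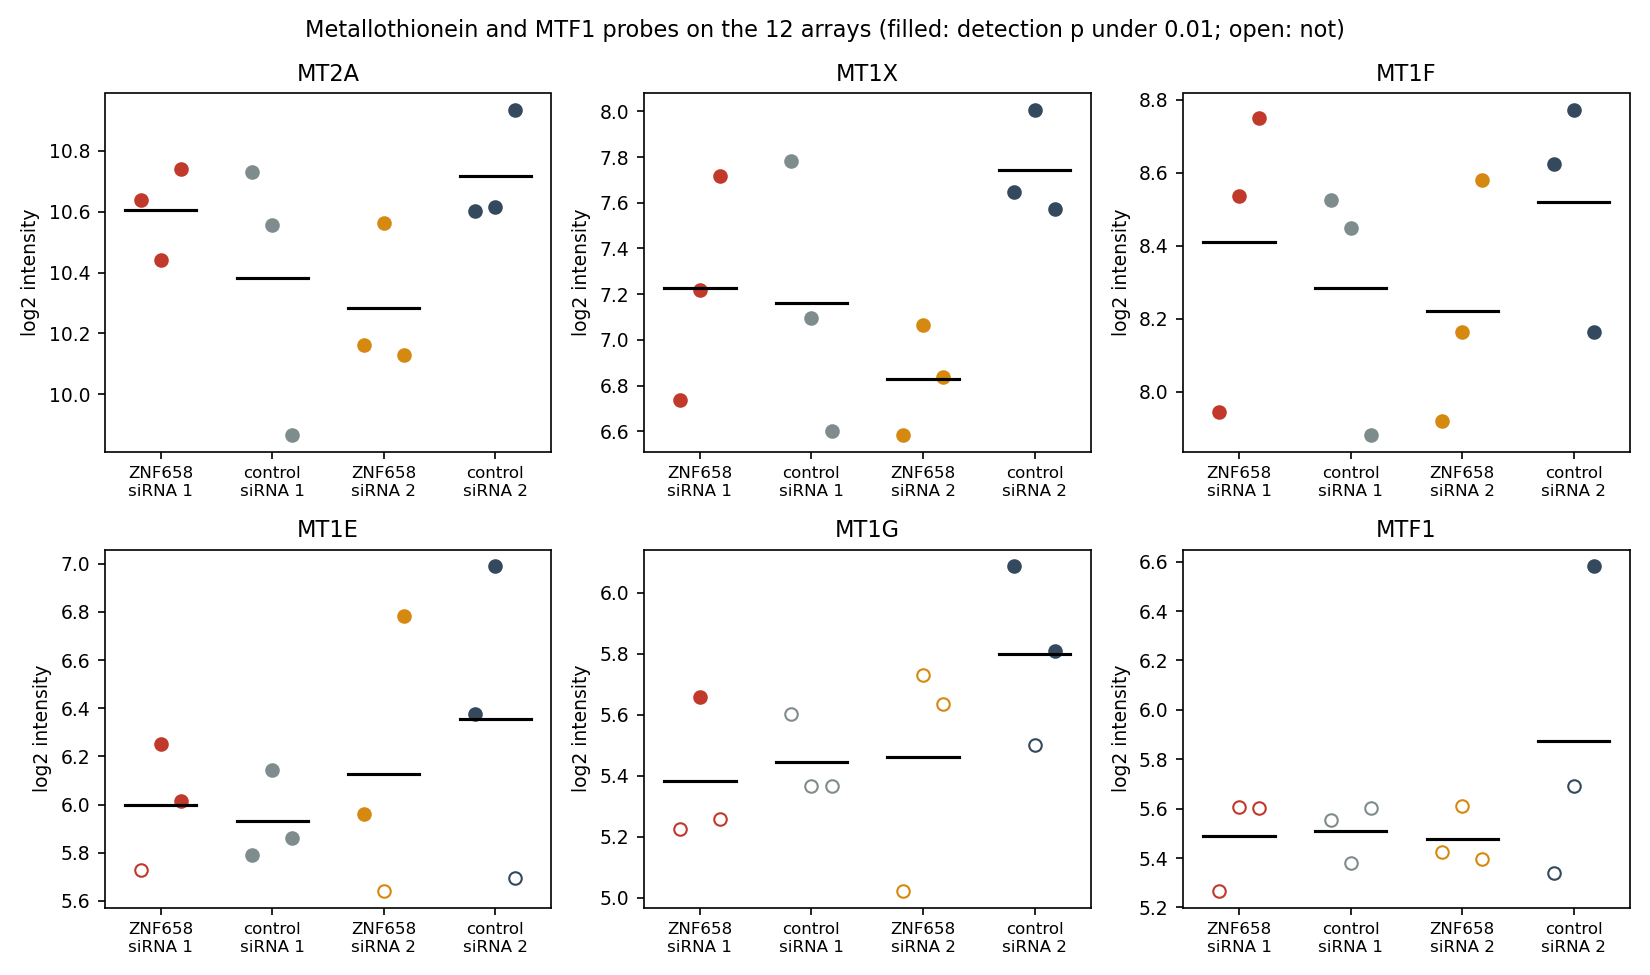
Each panel shows the log2 intensity of 1 probe on the 12 arrays, with replicates 1 to 3 from left to right in each group and a black line at the group mean. Filled points were detected and open points were not. The 3 arrays of ZNF658 siRNA 2 lie below those of control siRNA 2 for MT1X and MT2A, and MTF1 was detected on 1 array.

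MT1X, a widely expressed isoform, read 6.58, 7.07 and 6.84 with ZNF658 siRNA 2 and 7.65, 8.01 and 7.57 with control siRNA 2. All 3 knockdown arrays were thus lower than all 3 control arrays. The log2 difference was −0.91 (standard error 0.30, 95% confidence interval −1.55 to −0.28), or 0.531 of the control signal, and it was not called (adjusted p = 0.82 from limma). The unadjusted p was 0.00783. With quantile normalization but no background correction, the log2 difference was −0.49 (adjusted p = 0.81 from limma). Over the alternatives run, the log2 difference ranged from −1.15 to −0.41, so its size depends on the processing. Without the 2 arrays numbered 3 the log2 difference was −1.0 (adjusted p = 0.12), and with arrays weighted by quality, a setting that called 600 probes in this comparison and gave replicate 3 of control siRNA 2 a weight of 0.156, it was −1.15 and was called (adjusted p = 0.026).

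With ZNF658 siRNA 1, MT1X read 6.74, 7.22 and 7.72, against 7.78, 7.10 and 6.60 with control siRNA 1. These groups overlapped over almost their whole range. The log2 difference was 0.06 (standard error 0.30, interval −0.57 to 0.70, adjusted p = 0.97 from limma).

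MT2A, the main isoform of many human cells, read 10.16, 10.56 and 10.13 with ZNF658 siRNA 2 and 10.60, 10.61 and 10.94 with control siRNA 2. The groups did not overlap, though the highest knockdown array almost reached the lowest control array. The log2 difference was −0.43 (standard error 0.21, interval −0.88 to 0.01, adjusted p = 0.88 from limma). Without the arrays numbered 3 it was −0.25 (adjusted p = 0.56).

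With ZNF658 siRNA 1, MT2A read 10.64, 10.44 and 10.74, against 10.73, 10.56 and 9.86 with control siRNA 1. Only replicate 3 of the control lay below the knockdown arrays. The log2 difference was 0.22 (standard error 0.21, interval −0.22 to 0.67, adjusted p = 0.82 from limma), and it was −0.04 without that control array.

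MT1F, another type 1 isoform, read 7.92, 8.16 and 8.58 with ZNF658 siRNA 2, against 8.62, 8.77 and 8.16 with control siRNA 2. Replicate 3 of the control was as low as replicate 2 of the knockdown. The log2 difference was −0.30 (standard error 0.26, interval −0.85 to 0.25, adjusted p = 0.96 from limma), and −0.66 without the arrays numbered 3 (adjusted p = 0.16). With ZNF658 siRNA 1 it read 7.94, 8.54 and 8.75, against 8.52, 8.45 and 7.88 with control siRNA 1, differing on the log2 scale by 0.13 (standard error 0.26, interval −0.42 to 0.67, adjusted p = 0.93 from limma).

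MT1E, also of type 1, lay near the limit of detection and was detected on 9 of 12 arrays. It read 5.96, 5.64 and 6.78 with ZNF658 siRNA 2, against 6.38, 6.99 and 5.69 with control siRNA 2. Here replicate 3 was the high array of the knockdown and the low array of the control. The log2 difference was −0.22 (standard error 0.33, interval −0.94 to 0.49, adjusted p = 1.00 from limma), and −0.88 without the arrays numbered 3 (adjusted p = 0.11). With ZNF658 siRNA 1 it read 5.73, 6.25 and 6.02, against 5.79, 6.14 and 5.86 with control siRNA 1, differing on the log2 scale by 0.07 (standard error 0.33, interval −0.64 to 0.78, adjusted p = 0.97 from limma).

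Without replicate 3 of ZNF658 siRNA 1 and replicate 1 of control siRNA 1, the log2 differences with siRNA 1 were 0.33 for MT2A, 0.13 for MT1X, 0.08 for MT1F and −0.01 for MT1E (adjusted p = 0.66 to 0.99 from limma).

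Over the 4 probes the median log2 difference was 0.10 with siRNA 1 and −0.37 with siRNA 2, beside −0.01 and 0.00 over all tested probes. The probe for the small subunit rRNA (RNA18SN5), whose signal varied widely between arrays of 1 group, read 12.81 ± 2.55 with ZNF658 siRNA 2 and 10.61 ± 0.83 with control siRNA 2, and 9.95 ± 0.65 with ZNF658 siRNA 1 and 13.35 ± 2.26 with control siRNA 1 (SD, n = 3 each). Over the 12 arrays, which share their cell line and the normalization, the rRNA probe correlated at −0.47 with MT1X, −0.38 with MT2A, −0.55 with MT1F and −0.44 with MT1E. After group means were taken out these were −0.35 with MT1X, −0.04 with MT2A, −0.52 with MT1F and −0.51 with MT1E. Its part in the metallothionein values was not tested.

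MT1G, an isoform strongly induced by metals, and MTF1 itself failed the detection filter. MT1G was detected on 3 arrays, 1 of ZNF658 siRNA 1 and 2 of control siRNA 2. It read 5.02, 5.73 and 5.63 with ZNF658 siRNA 2 and 6.09, 5.50 and 5.81 with control siRNA 2, and 5.23, 5.66 and 5.26 with ZNF658 siRNA 1 and 5.60, 5.37 and 5.36 with control siRNA 1. Both pairs of groups overlapped.

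MTF1 was detected on 1 array alone, replicate 3 of control siRNA 2, at 6.58. The other 11 arrays lay between 5.26 and 5.69. Its group means were 5.49 ± 0.20 with ZNF658 siRNA 1 and 5.51 ± 0.12 with control siRNA 1, and 5.48 ± 0.12 with ZNF658 siRNA 2 and 5.87 ± 0.64 with control siRNA 2 (SD, n = 3 each). Without that array the difference between siRNA 2 and its control was −0.04. A change in MTF1 mRNA was therefore not detectable at this signal. When all probes were tested without the filter, MTF1 had log2 differences of −0.02 with siRNA 1 (adjusted p = 1.00 from limma) and −0.40 with siRNA 2 (adjusted p = 0.98), and MT1G had −0.06 (adjusted p = 0.99) and −0.34 (adjusted p = 0.98).

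The second comparison asked whether the 2 siRNAs moved the metallothioneins alike. The mean of both effects was called for 0 of the 4, where 0.00675% of all tested probes were called, and the difference between the effects for 0 of the 4, where 0% were. Without the siRNA 2 arrays numbered 3, the difference was called for 1427 probes and again for 0 of the 4, with −1.07 for MT1X, −0.47 for MT2A, −0.78 for MT1F and −0.95 for MT1E (adjusted p = 0.12 to 0.33 from limma). For the mean of both effects 0 of the 4 had an unadjusted p under 0.05 from limma, against 2.51% of all tested probes. For the difference 2 of the 4 did, MT1X and MT2A, against 10.8%. The difference for MT1X, siRNA 2 minus siRNA 1, was −0.98 (standard error 0.42, interval −1.88 to −0.08, adjusted p = 0.43 from limma). The difference for MT2A was −0.66 (standard error 0.30, interval −1.29 to −0.03, adjusted p = 0.44), for MT1F −0.42 (interval −1.20 to 0.35) and for MT1E −0.29 (interval −1.30 to 0.71). The mean of both effects ran from −0.42 for MT1X (interval −0.87 to 0.02) to −0.08 for MT1E.

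**Figure D3:**
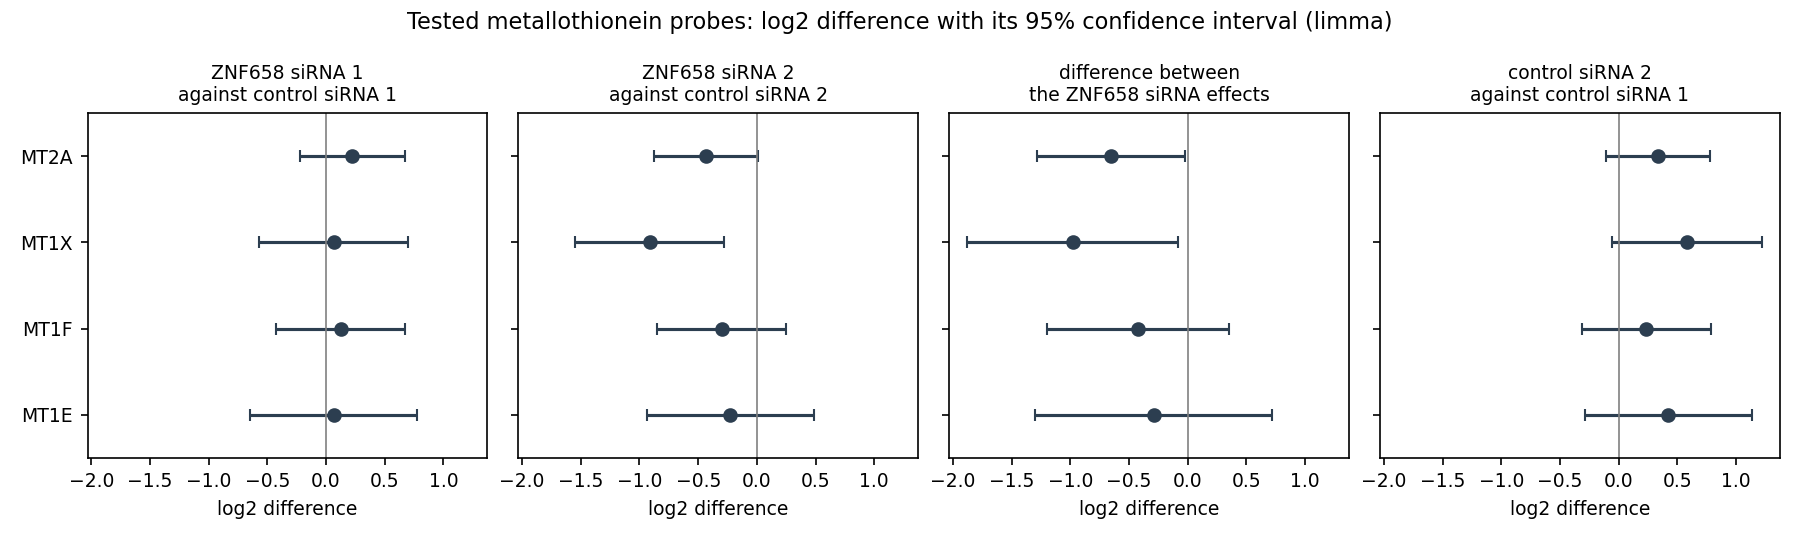
Points are log2 differences of the 4 tested metallothionein probes and bars their 95% confidence intervals from limma, by comparison. Differences lie above 0 with siRNA 1 and below 0 with siRNA 2, and only the intervals of MT1X with siRNA 2 and of MT1X and MT2A in the difference leave out 0.

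The third comparison set the suppliers' arrays against each other, first the controls and then the knockdowns. These comparisons share arrays with those above. None of the 4 tested genes of the chosen set was called between the controls, where 2.03% of all tested probes were, or between the knockdowns, where 1.93% were. At an unadjusted limma p under 0.05 the counts were 0 of the 4 between the controls, against 14.9% of all tested probes, and 0 of the 4 between the knockdowns, against 15.3%. Arrays did not overlap for 0 of the 4 in either, against 20.6% and 20.9% of all tested probes. All 4 differences between control siRNA 2 and control siRNA 1 were above 0, with log2 differences of 0.58 for MT1X (standard error 0.30, adjusted p = 0.38 from limma), 0.42 for MT1E (standard error 0.33, adjusted p = 0.61), 0.33 for MT2A (standard error 0.21, adjusted p = 0.49) and 0.24 for MT1F (standard error 0.26, adjusted p = 0.72). Without replicate 3 of control siRNA 1 these were 0.30 for MT1X, 0.08 for MT2A and 0.03 for MT1F, and without the siRNA 2 arrays numbered 3, where 819 probes were called, they were 0.67 for MT1X, 0.75 for MT1E, 0.23 for MT2A and 0.41 for MT1F. Between ZNF658 siRNA 2 and ZNF658 siRNA 1 they were −0.40 for MT1X, −0.32 for MT2A, −0.19 for MT1F and 0.13 for MT1E, and without the arrays numbered 3, where 1615 probes were called, MT1E had −0.20 and MT1F −0.37.

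By group mean, MT1X was highest with control siRNA 2 (7.74 ± 0.23), followed by ZNF658 siRNA 1 (7.22 ± 0.49), control siRNA 1 (7.16 ± 0.60) and ZNF658 siRNA 2 (6.83 ± 0.24; SD, n = 3 each). MT2A had the same order, with 10.72 ± 0.19, 10.61 ± 0.15, 10.38 ± 0.46 and 10.28 ± 0.24 (SD, n = 3 each). No neighbours in these orders were further apart than the larger of their SDs, apart from MT1X between control siRNA 2 and ZNF658 siRNA 1.

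The tested metallothioneins varied together in part. Over the 12 arrays, which share their groups and normalization, Pearson's r was 0.77 between MT1F and MT1X, 0.73 between MT1X and MT2A, 0.67 between MT1E and MT1F and 0.38 between MT1F and MT2A. MT1E was at 0.29 with MT1X and −0.19 with MT2A. After group means were taken out, these values were 0.78, 0.61, 0.68, 0.22, 0.18 and −0.42 in the same order. Among 9199 other named genes, each by its brightest tested probe, the 5 most like MT2A, the brightest metallothionein probe, were NDUFA3 (r = 0.91), MRPL55 (0.90), PRPF19 (0.89), COX8A (0.88) and MRPL41 (0.87) over the 12 arrays.

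Of 13 other metallothionein loci or former metallothionein-like symbols, MT4 and TESMIN had a named probe, and both were tested. MT4, a metallothionein known from stratified squamous epithelium, split by supplier. It was detected on all 6 Ambion arrays and on none of the 6 Dharmacon arrays. It read 4.92, 4.84 and 4.94 with ZNF658 siRNA 2, against 6.64, 6.58 and 7.14 with ZNF658 siRNA 1, and 5.11, 4.73 and 5.18 with control siRNA 2, against 6.64, 6.15 and 6.46 with control siRNA 1. In neither comparison did the groups overlap.

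MT4 passed the detection filter only through the ZNF658 siRNA 1 and control siRNA 1 arrays. Its p values between suppliers are therefore given as a description only. Fitted log2 differences, which use values below background, were −1.89 between the knockdowns and −1.41 between the controls (adjusted p = 0.00044 and 0.0045 from limma). Bounded by the detection level of the arrays where it was not detected, MT4 was at least 1.94-fold lower with ZNF658 siRNA 2 than siRNA 1. Likewise it was at least 1.59-fold lower with control siRNA 2 than with control siRNA 1. Against their own controls the log2 differences of MT4 were 0.37 with siRNA 1 (standard error 0.24, adjusted p = 0.75) and −0.11 with siRNA 2, where neither group was above background. Without the arrays numbered 3 the fitted differences between suppliers were still called (adjusted p = 0.00055 between the knockdowns and 0.0042 between the controls). Supplier and any other difference between these sets of arrays cannot be told apart. TESMIN, a testis gene once named as metallothionein-like, had log2 differences of 0.05 with siRNA 1 and −0.19 with siRNA 2 (−0.67 without the arrays numbered 3), none of them called.

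SLC30A1 encodes the zinc exporter ZnT1 of the plasma membrane, a textbook target of MTF1. Its 2 probes averaged 8.63 ± 0.07 and 8.44 ± 0.32 with control siRNA 2, and 9.19 ± 0.13 and 8.99 ± 0.18 with control siRNA 1 (SD, n = 3 each). Both had a log2 difference of −0.56 between the controls, and neither was called (adjusted p = 0.080 and 0.18 from limma). With the knockdowns the probes averaged 8.80 ± 0.09 and 8.47 ± 0.21 for ZNF658 siRNA 2, and 9.01 ± 0.14 and 9.12 ± 0.16 for ZNF658 siRNA 1. Here the second probe had a log2 difference of −0.65 (adjusted p = 0.12) and the first −0.21 (adjusted p = 0.57). Against their own controls the first probe had −0.17 with siRNA 1 and 0.17 with siRNA 2, and the second 0.13 and 0.03, with no call. Without the siRNA 2 arrays numbered 3 the second probe had −0.77 between the knockdowns and was called (adjusted p = 0.0096 from limma). In that setting 1615 of the 14804 tested probes were called between the knockdowns. The second probe was also called without replicate 3 of control siRNA 2 alone (−0.65, adjusted p = 0.029 from limma), where 791 probes were called. With array quality weights it was called too (−0.75, adjusted p = 0.0030 from limma), where 2891 probes were called.

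**Figure D4:**
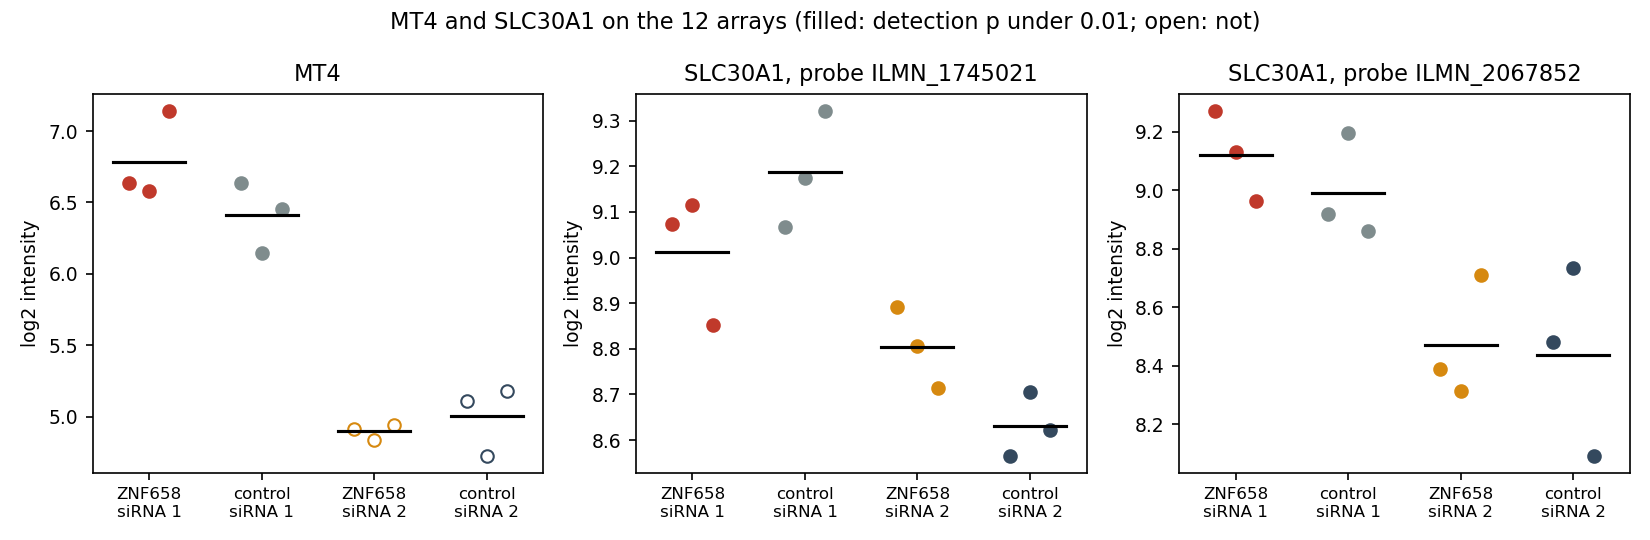
Each panel shows the log2 intensity of 1 probe on the 12 arrays by group, with a black line at the group mean, filled points detected and open points not. MT4 was detected on all 6 siRNA 1 and control siRNA 1 arrays and on none of the siRNA 2 and control siRNA 2 arrays.

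Genes that share a pathway, a stimulus or the chromosomal neighbourhood with the metallothioneins were counted by their brightest tested probe. Of 56 tested genes on 7 lists, limma called 0 with either siRNA. Before adjustment 2 genes had a p under 0.05 with siRNA 1, where 7.21% of all tested probes did, and 5 with siRNA 2, where 5.65% did. With array quality weights SLC39A7 was called with siRNA 1 (0.65), and COX17 (−0.59), HSPA1B (0.49) and TFF3 (−1.04) with siRNA 2. In this setting 841 of the 14804 tested probes were called with siRNA 1 and 600 with siRNA 2. Of the lists, only the genes named in the text were followed in it. Of 13 symbols listed for genes linked to MTF1, some of them old and new names of the same gene, 9 genes were tested. Their median log2 difference was −0.03 with siRNA 1 and 0.17 with siRNA 2. SLC39A10, a zinc importer, had 0.31 with siRNA 1 (adjusted p = 0.77 from limma), CSRP1, a LIM domain protein, −0.37 (adjusted p = 0.77) and the first probe of SLC30A1 −0.17 (adjusted p = 0.81). TFF3, a secreted peptide of goblet cells, had −0.57 with siRNA 2 (adjusted p = 0.92). Without the arrays numbered 3, where 268 probes were called with siRNA 2, TFF3 had −1.27 and was called (adjusted p = 0.036 from limma). PGF, a growth factor of the VEGF family, was called between the controls at a log2 difference of −1.22 (adjusted p = 0.041), and lost the call when any 1 of 10 of the 12 arrays was left out (−1.63 to −0.93 over all 12), with median scaling, with only probes detected on all 12 arrays and with the replicate block (adjusted p = 0.053 to 0.077).

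Of 15 zinc transporter genes, which move zinc into or out of the cytosol, 11 were tested. Their median log2 difference was 0.23 with siRNA 1 and 0.09 with siRNA 2. SLC39A7, the zinc channel of the endoplasmic reticulum, had 0.61 with siRNA 1 (adjusted p = 0.69 from limma), SLC39A8, an importer of zinc and manganese, 0.41 (adjusted p = 0.70) and SLC30A7, a carrier of zinc into the secretory pathway, 0.38 (adjusted p = 0.69). SLC39A6, a zinc importer, had 0.59 with siRNA 2 (adjusted p = 0.84). SLC39A14, an importer of zinc and iron, was called higher with ZNF658 siRNA 2 than with ZNF658 siRNA 1 (log2 difference 0.69, adjusted p = 0.040), a call lost when any 1 of 10 of the 12 arrays was left out, with median scaling (adjusted p = 0.53), without the detection filter (0.15) and with the replicate block (0.071). Of 12 symbols listed for copper handling 10 were tested, with medians of 0.05 with siRNA 1 and −0.07 with siRNA 2. COX17, which carries copper to cytochrome oxidase, had −0.56 with siRNA 2 (adjusted p = 0.82), ATOX1, the copper chaperone of the cytosol, −0.38 (adjusted p = 0.92) and SLC31A2, a copper transporter, 0.15 (adjusted p = 0.99). SCO2, a copper chaperone of mitochondria, had −0.25 with siRNA 1 (adjusted p = 0.81).

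Targets of NRF2, which respond to oxidants and to heavy metals, had 10 of 14 genes tested and medians of −0.03 with siRNA 1 and −0.02 with siRNA 2. TXNRD1, the cytosolic thioredoxin reductase, had −0.42 with siRNA 2 (adjusted p = 0.92 from limma), NQO1, a quinone reductase, 0.19 (adjusted p = 0.98) and SRXN1, which restores peroxiredoxins, −0.18 (adjusted p = 0.99). SLC7A11, the cystine importer, had −0.29 with siRNA 1 (adjusted p = 0.77). SLC7A11 was the gene of these lists called between both sets of arrays, at −1.47 between control siRNA 2 and control siRNA 1 (adjusted p = 0.00092) and at −1.16 between ZNF658 siRNA 2 and ZNF658 siRNA 1 (adjusted p = 0.0072). The second call was lost without replicate 1 of either knockdown (−1.11 without that of siRNA 1, −1.07 without that of siRNA 2). The 8 heat shock genes, of which heavy metals induce several, were all tested and had medians of −0.01 and 0.08. HSPA1B and HSPA1A, near-identical genes for the inducible HSP70 whose probes may share RNA, had 0.40 (adjusted p = 0.82) and 0.33 (adjusted p = 0.88) with siRNA 2. The cochaperones HSPH1 and DNAJB1 had 0.21 and −0.32 (adjusted p = 0.92 each).

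Glucocorticoids also induce MT2A, and of 8 of their targets 5 were tested, with medians of −0.08 with siRNA 1 and 0.11 with siRNA 2. CRISPLD2, a secreted protein, had −0.50 with siRNA 2 (adjusted p = 0.84 from limma), KLF9, a transcription factor, 0.43 (adjusted p = 0.93) and DUSP1, a phosphatase of MAP kinases, 0.29 (adjusted p = 0.93). SGK1, a kinase, had −0.22 with siRNA 1 (adjusted p = 0.78). Of 10 genes that lie near the cluster on chromosome 16, 6 were tested, with medians of 0.02 and −0.07. NUDT21, a factor of mRNA 3′ end processing, had 0.21 with siRNA 2 (adjusted p = 0.94), SLC12A3, a sodium chloride cotransporter, −0.39 (adjusted p = 0.92), BBS2, a subunit of the BBSome of cilia, −0.20 (adjusted p = 0.96) and OGFOD1, a prolyl hydroxylase, 0.20 (adjusted p = 0.96).

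**Figure D5:**
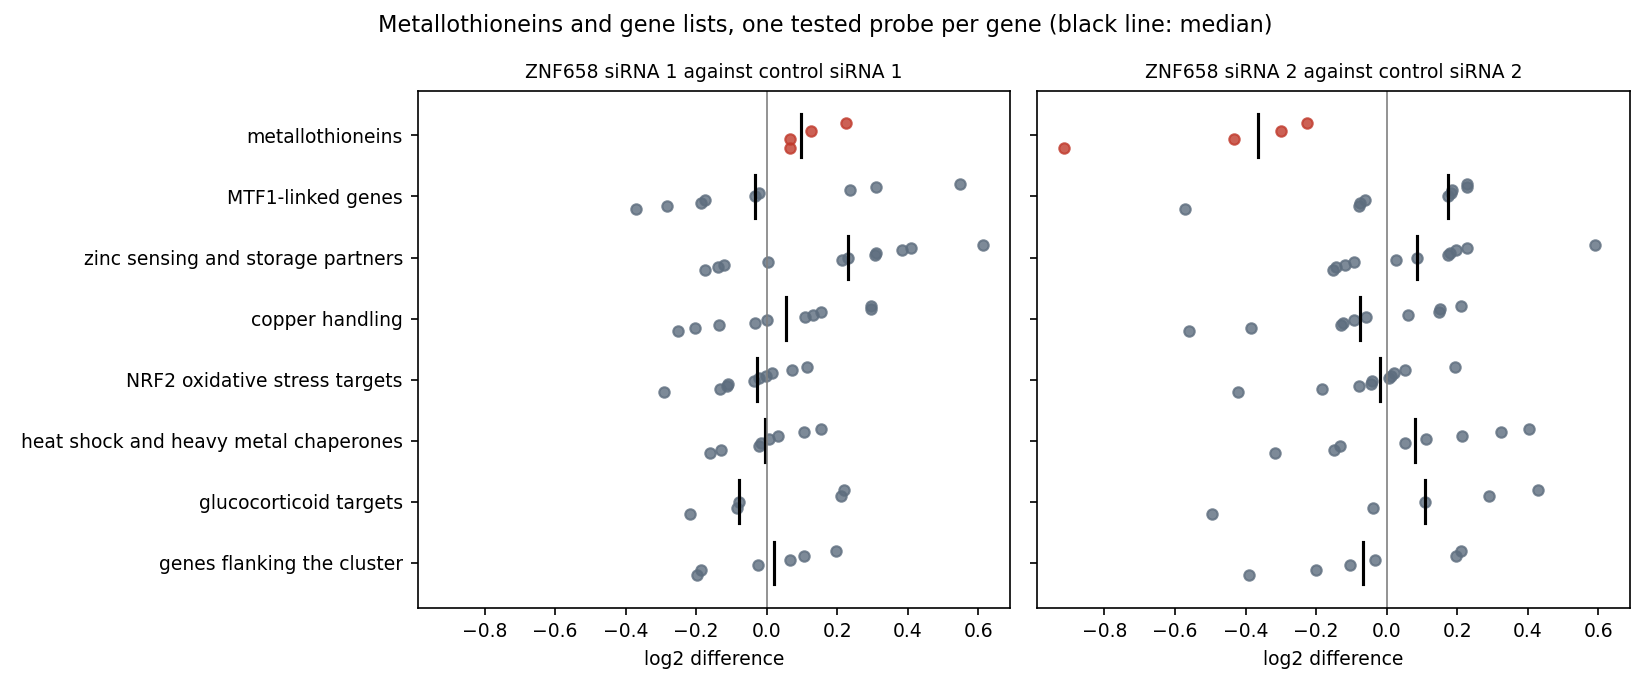
Each point is the log2 difference of 1 gene by its brightest tested probe, with siRNA 1 on the left and siRNA 2 on the right, and black lines are medians. The 4 metallothioneins have a median of 0.10 with siRNA 1 and −0.37 with siRNA 2, and no gene shown was called in these comparisons.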

How the data were processed

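RNA from 12 samples of transfected Caco-2 cells was hybridized to Illumina HT12 bead chips. The authors exported the bead intensity of 47231 probes on each array with its detection p-value, deposited without normalization. A second table holds the authors' log2 values for 21105 probes, which they transformed and normalized before they deposited them. This table was used here only as an alternative. The labels name lumi, with no version. A table of gene names lists 1 symbol for 15540 of these 21105 probes and several for 3, and leaves 5562 unnamed. The other measured probes had no names here.

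Background correction and quantile normalization were done with limma 3.58.1 (neqc, offset 16, with the negative control level derived from detection) in R 4.3.3, with statmod 1.5.0. A total of 14804 probes that passed detection (p under 0.01) on every array of 1 group or more entered 1 limma fit (lmFit, eBayes with a trend) of 4 group means over all 12 arrays. The study's methods name rank products. Here limma was used, since it weighs each probe's spread, and the 1.2-fold minimum of the methods was kept. A call needed a Benjamini-Hochberg adjusted p under 0.05. The fit was run on simulated data with independent noise for each probe and changes in the ZNF658 siRNA 1 group alone. Differences between arrays that many probes share were not simulated, so the simulation does not speak to them. A probe below detection in the lower group has its fold given as a lower bound, its mean in the higher group over the detection level.

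The text gives every named probe of the chosen genes and of other metallothionein loci. It also gives up to 4 genes a list with the lowest p in either siRNA comparison. Genes of the lists called between suppliers are given too, as are the 5 genes most correlated with the brightest metallothionein probe. The second probe of SLC30A1 was added after its values were seen. Members and lists were chosen with earlier results of these data known. Alternatives were other normalizations, the authors' table, other filters, quality weights, no fold minimum, replicate number as a block, other controls and leaving out arrays. Replicate numbers did not pair the arrays.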

Additional observations from a re-analysis of the deposited data

Results flagged for a closer look

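In MT2A, MT4, COX17, ATOX1 and BBS2 the 3 arrays of ZNF658 siRNA 1 all lay above the mean of their control and the 3 arrays of ZNF658 siRNA 2 all below theirs. The difference between the effects, siRNA 2 minus siRNA 1, was −0.66 for MT2A (−0.43 with siRNA 2 and 0.22 with siRNA 1, adjusted p = 0.44 from limma). It was −0.48 for MT4, whose siRNA 2 and control siRNA 2 arrays were not above background (adjusted p = 0.65). For the copper chaperones it was −0.86 for COX17 (adjusted p = 0.27) and −0.68 for ATOX1 (adjusted p = 0.48), and for BBS2, near the cluster, −0.40 (adjusted p = 0.60). In SLC30A1 (first probe) and SGK1 the arrays ran the other way, siRNA 1 below and siRNA 2 above the control mean, with differences of 0.35 (adjusted p = 0.61) and 0.33 (adjusted p = 0.67). For the second SLC30A1 probe the difference was −0.10, from 0.03 (siRNA 2) minus 0.13 (siRNA 1). None of these differences passed the limma test after adjustment. How many of all tested probes share such a pattern was not counted, so it cannot be called particular to these genes.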

How the results depend on the processing

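The count of 0 called among MT2A, MT1X, MT1F and MT1E stayed at 0 in every comparison under all alternatives run, the leaving out of each array included (0 to 0), apart from array quality weights. There 1 was called (MT1X) with siRNA 2, in the difference between the siRNAs (−1.11) and between the controls (0.78), while calls over all probes reached 600, 2729 and 2516. Quality weights also called SLC30A1 lower between the controls with both probes (−0.55 and −0.43) and between the knockdowns with the second (−0.75). Replicate numbers were used as a block although deviations from the group means correlated at only −0.59 to 0.40 between same-numbered arrays, and 3 of 12 arrays were closest to their own number. With this block 0 of the 4 were called in each comparison, and calls over all probes were 1 with siRNA 1, 0 with siRNA 2, 201 between the controls and 198 between the knockdowns.

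With siRNA 1, signs changed. Quality weights gave −0.0657 for MT1E, −0.0477 for MT1F and −0.0424 for MT1X. All 6 controls as 1 group gave −0.14 for MT1E, −0.23 for MT1X and 0.44 for SLC7A11. Control siRNA 2 for both gave −0.36 for MT1E, −0.11 for MT1F, −0.52 for MT1X, −0.11 for MT2A and 1.18 for SLC7A11 (called, adjusted p = 0.0077), and MT4, 0.37 with its own control, had 1.78 and was called (adjusted p = 0.00086). Without replicate 3 of ZNF658 siRNA 1 and replicate 1 of control siRNA 1, chosen after seeing the data, MT1E had −0.012. With either shared control, the difference between the siRNAs is by construction that between the knockdowns, 0.13 for MT1E. Quality weights gave 0.012 for MT4 with siRNA 2, and MT1E between the knockdowns was −0.20 without the siRNA 2 arrays numbered 3. For genes of the lists, the sign with siRNA 1 changed for SLC30A1 (0.054 with median scaling, 0.10 with all 6 controls, 0.38 with control siRNA 2 for both), SGK1 (0.033 with median scaling, 0.057 with all 6 controls, 0.33 with control siRNA 2 for both), CSRP1 (0.23) and SLC39A8 (−0.21), the last pair with control siRNA 2 for both. With siRNA 2 it changed for SRXN1 (0.212 with quality weights, 0.213 without the arrays numbered 3), NQO1 (−0.17 without these arrays, −0.043 with all 6 controls) and SLC31A2 (−0.13 with all 6 controls). With 1 array left out, ranges that crossed 0 were, with siRNA 1, −0.059 to 0.20 for MT1E, −0.076 to 0.36 for MT1F, −0.22 to 0.38 for MT1X and −0.036 to 0.40 for MT2A. With siRNA 2 they were −0.55 to 0.094 for MT1E and −0.50 to 0.0015 for TESMIN, −0.053 to 0.37 for NQO1 and −0.37 to 0.059 for SRXN1, for the mean of both effects −0.24 to 0.081 for MT1E and −0.19 to 0.030 for MT1F, for the difference −0.62 to 0.027 for MT1E, and between the knockdowns −0.20 to 0.38 for MT1E. MT1G and MTF1, which failed the detection filter, also had ranges that crossed 0. With siRNA 1 these were −0.20 to 0.015 for MT1G and −0.086 to 0.093 for MTF1. Between the knockdowns these were −0.053 to 0.30 for MT1G and −0.13 to 0.042 for MTF1. Values with exchanged or pooled controls contain the difference between the controls by construction. The cause of the other changes was not tested. Low signal limits MT1E, MT1G and MTF1.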
